A study of Mus musculus with 20 samples.

Results

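The mitochondrial carriers are the proteins encoded by the Slc25a genes. They were followed here in the quadriceps, a thigh muscle, of male mice whose dams had eaten a high-fat or a low-fat diet. Members were all probes for endogenous transcripts whose gene name in the scanner files is Slc25a followed by a number: 53 probes for 44 genes, of 39429 probes on the array. Of these, 37 probes for 31 genes were well above background in the sample dye on at least 10 of the 20 arrays and were compared between groups, among 19206 such probes in all. The members were named by their symbol and not by any measured value.

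All mice were male C57BL/6J offspring and 6 weeks old. The mHFD group (n = 10) came from dams fed a diet with 40% of its energy from fat, 37% from carbohydrate and 23% from protein. The mLFD group (n = 10) came from dams fed 10% fat, 67% carbohydrate and 23% protein. Dams ate their diet from 3 days before mating, through pregnancy and lactation. Every pup of either group received the low-fat diet after weaning, was caged singly, and was fasted for 2 h before tissue was taken, so the groups differed in the diet of the dam. Litters were set to between 5 and 7 pups, with at most 4 siblings in a group. The labels do not give the litter of a mouse, so siblings may have been treated as independent and the p-values below may be too small.

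Each sample was hybridised in the dye Cy5 together with a pool of all samples in the dye Cy3, on Agilent arrays of 60-base probes. A value below is therefore the log2 ratio of a muscle to the pool, and a difference is the mHFD mean minus the mLFD mean of these ratios, with the limma standard error (SE). Dyes were not swapped, so a ratio away from 0 in both groups can be a dye effect, which cancels in the difference. The arrays filled 5 slides of 4, with 2 muscles of each group on every slide. On each slide mHFD held positions 1 and 3 and mLFD positions 2 and 4. An effect of odd or even position therefore cannot be told apart from that of the diet. The count of probes well above background ran from 15506 to 23410 over the arrays. The muscles labelled mLFD 01 and mLFD 07 had the highest median Cy5 signals (7.84 and 7.63 on the log2 scale, against 6.10 to 6.85 on the other arrays). All 8 skeletal muscle fibre markers were above background on every array, with mean log2 signals from 14.31 (Myh2) to 17.43 (Tnni2), so the labelled tissue and its markers matched. Markers of other cells in the tissue were also detected: 7 of 8 adipocyte, 7 of 10 erythroid, 4 of 4 macrophage and 4 of 4 endothelial genes. Their median differences between the groups were -0.35, -0.023, -0.059 and 0.027 on the log2 scale, and all 6 slow fibre markers were lower in mHFD by a median of -0.29, unevenly over the slides (differences of their mean of -0.086, 0.37, -0.46, -1.09 and -0.062). After adjustment, 0 of these genes passed the test, and their part in the member values was not tested except where given below.

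The inner mitochondrial membrane is nearly impermeable to charged metabolites, and carriers of this family move them across it, usually as an exchange of one substrate for another. Each carrier is built from repeated pairs of membrane-spanning helices around a central substrate site and is made in the cytosol. Carriers bound for the inner membrane then pass through the pores of the outer membrane and are inserted by the TIM22 machinery. In skeletal muscle the family exports ATP made by oxidative phosphorylation, brings in ADP and phosphate, carries reducing equivalents in the malate-aspartate shuttle and admits fatty acids as acylcarnitines.

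Sequences are shown for the genes on which the values below turn. The first pair is the 60-base array probes for the brightest member, Slc25a4, at chr8:47292828-47292887 on the minus strand of mouse build mm9, and for the dimmer of 2 Slc25a26 probes, at chr6:94548392-94549185 on the plus strand. The genomic span of the latter is 794 bases for 60 bases of probe, so by these coordinates the probe joins sequence from both sides of an intron. The Slc25a39 probe (673 bases) and the dimmer Slc25a33 probe (3134 bases) also span more than their length. The brighter Slc25a26 probe lies downstream at chr6:94554505-94554564 and does not cross an intron by its coordinates. Both sequences are written 5′ to 3′ and no part is marked.
Slc25a4 probe: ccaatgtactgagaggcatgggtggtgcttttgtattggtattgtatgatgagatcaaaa
Slc25a26 dimmer probe: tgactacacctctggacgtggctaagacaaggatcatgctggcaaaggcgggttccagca

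The second pair is the 250 bases before the transcription start of Slc25a25, the member with the largest difference between the groups, and of Slc25a36, a carrier whose difference was small. They come from RefSeq on build GRCm38.p6, at chr2:32424067-32424316 and chr9:97111042-97111291, both on the minus strand. Capitals mark the palindrome TGACGTCA, the full cAMP response element, which begins 150 bases before the start in Slc25a25 and 161 bases before it in Slc25a36.
Slc25a25: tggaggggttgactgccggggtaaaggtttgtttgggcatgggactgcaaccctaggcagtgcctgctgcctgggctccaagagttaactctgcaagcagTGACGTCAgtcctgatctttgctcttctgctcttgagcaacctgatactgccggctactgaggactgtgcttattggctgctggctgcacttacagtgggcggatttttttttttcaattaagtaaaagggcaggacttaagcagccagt
Slc25a36: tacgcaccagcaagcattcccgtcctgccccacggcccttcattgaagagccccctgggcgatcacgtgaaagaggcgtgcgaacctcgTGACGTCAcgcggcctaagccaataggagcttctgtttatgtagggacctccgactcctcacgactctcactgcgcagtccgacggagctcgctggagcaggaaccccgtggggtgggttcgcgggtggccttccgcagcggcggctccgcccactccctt

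RefSeq promoter windows, each 250 bases before and 50 after a start, were found for 34 of the 44 members, 43 windows in all. TGACGTCA was present in 2 of the 43 (4.65%) and in 588 of all 32851 windows (1.79%). The site of the respiratory gene factor NRF-1, searched on both strands, was present in 2 of the 43 (4.65%), those of Slc25a3 and Slc25a31, and in 4.6% of all windows. The nuclear receptor site TCAAGGTCA was in 0 of the 43 and in 0.423% of all windows. These shares describe the letters in the windows and say nothing of binding.

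The brightest members were carriers of ADP, ATP, phosphate and the malate-aspartate shuttle. Brightness is the mean log2 of the background-corrected Cy5 signal over the 20 arrays, given with its SD; it depends on a probe's sequence as well as on the transcript, so the order is one of probes. Slc25a4, the ADP/ATP exchanger of heart and skeletal muscle, was brightest at 16.56 ± 0.73, over the 17 arrays with a value for it. Slc25a3, which imports phosphate for ATP synthesis, followed at 12.86 ± 0.81 for the brighter of 2 probes and 10.04 ± 0.73 for the dimmer. The shuttle members came next: the 2-oxoglutarate/malate exchanger Slc25a11 at 12.21 ± 1.04 and the aspartate/glutamate exchanger Slc25a12 at 12.02 ± 0.85. Neighbours in this order from Slc25a3 to Slc25a12 lay closer together than the SD over arrays. That SD includes the brightness of whole arrays, which probes share, so it does not measure how certain the order is. In mHFD 01, for instance, the brighter Slc25a3 probe read 13.88 and Slc25a11 13.32, and in mLFD 04 they read 12.04 and 11.94. The order was not the same on every array: in mHFD 06 Slc25a11 read 11.48 and Slc25a12 11.88. In the Cy3 pool the means of the brighter Slc25a3 probe and of Slc25a11 were level, at 13.61 each. The mean of Slc25a4 lay 3.70 above that of the next probe, though the 2 means cover unlike sets of arrays.

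Dimmer among the 8 brightest genes was Slc25a46, an outer membrane member linked to mitochondrial shape, at 9.98. Slc25a42, a carrier of coenzyme A, stood at 9.66, and Slc25a34, whose substrate is unsettled, at 9.44. The 8 brightest genes were the same in mHFD and in mLFD arrays. Over the tested member probes, the brightness orders of mHFD and mLFD had a rank correlation of 0.995, and over all 53 the order in Cy5 and in the Cy3 pool had one of 0.993; groups and pool share probes and, for the pool, RNA.

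Close relatives differed in brightness, although different probes cannot be set against each other as transcript levels. The ADP/ATP exchanger Slc25a5, found in many tissues, had a brighter probe at 9.11 and a second probe that was above background on 0 arrays. The liver-type aspartate/glutamate exchanger Slc25a13 was above background on 4 arrays (1 mHFD and 3 mLFD), against all 20 for Slc25a12. Of the calcium-regulated ATP-Mg/phosphate carriers, Slc25a25 had probes at 8.79 and 8.41, Slc25a24 stood at 7.17, and Slc25a23 was above background on 7 arrays (3 mHFD and 4 mLFD).

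**Figure D1:**
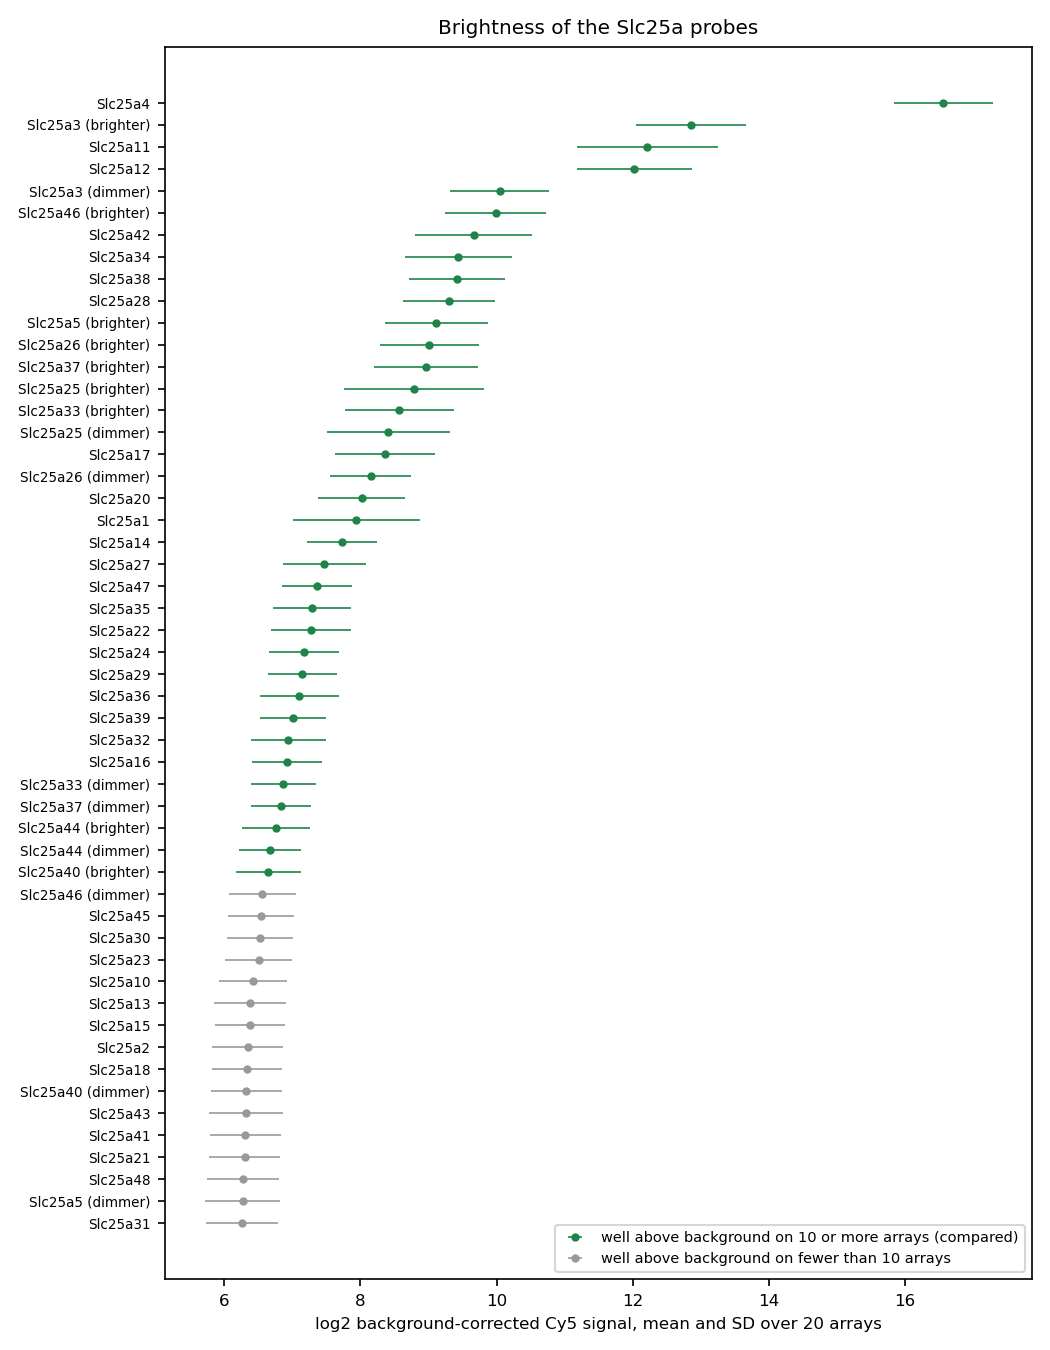
Mean log2 background-corrected Cy5 signal of the Slc25a probes reported here (points) with the SD over 20 arrays, or 17 for Slc25a4 (lines). Green marks probes that were compared and grey the 16 that were above background on fewer than 10 arrays. Slc25a4 at 16.56 stands apart from the rest, and the compared probes end at Slc25a40 with 6.65, just above the first grey probe at 6.56.

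The limit of 10 arrays fell among probes of nearly equal brightness. Just inside it, Slc25a40 was above background on 11 arrays (5 mHFD and 6 mLFD); just outside, the dimmer Slc25a46 probe and Slc25a45 were so on 9 each. Of the 13 genes with no tested probe, 8 were above background on 0 arrays: Slc25a2, Slc25a15, Slc25a18, Slc25a21, Slc25a31, Slc25a41, Slc25a43 and Slc25a48. Among these Slc25a31 is the ADP/ATP exchanger of the testis, and Slc25a2 and Slc25a15 carry ornithine. The other 5 were above background on 1 to 9 arrays: Slc25a45, Slc25a30, Slc25a23, Slc25a10 and Slc25a13, with no more than 5 arrays in either group. Of the 37 tested probes, 28 were above background on all 20 arrays, and no member probe was saturated on any array.

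The comparison of mHFD with mLFD asked whether the diet of the dam was followed by a different carrier expression in the muscle of offspring that ate the same food. At an adjusted p of 0.05, limma with Benjamini-Hochberg adjustment called 0 of 37 member probes (smallest adjusted p = 0.690), against 1 of 19206 probes overall (0.00521%). At an unadjusted limma p under 0.05, 3 of 37 members were called (8.11%), against 7.14% of all probes. All 3 were higher in mHFD, where the background was 4.03%, and 0 were lower, where it was 3.11%. The share of members called was near the background. The array measures RNA per amount of tissue RNA, so fewer cells of a type and less RNA per cell cannot be told apart.

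Over the 31 member genes, each by its brightest probe, 16 differences were above 0 and 15 below, with a median of 0.00072. Of all tested probes 51.6% had a difference above 0, and their median was 0.0030. The median size of a member difference was 0.043, against 0.051 for all probes, and the median SE of a member difference was 0.070. Most members thus differed between the groups by less than their own standard error.

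**Figure D2:**
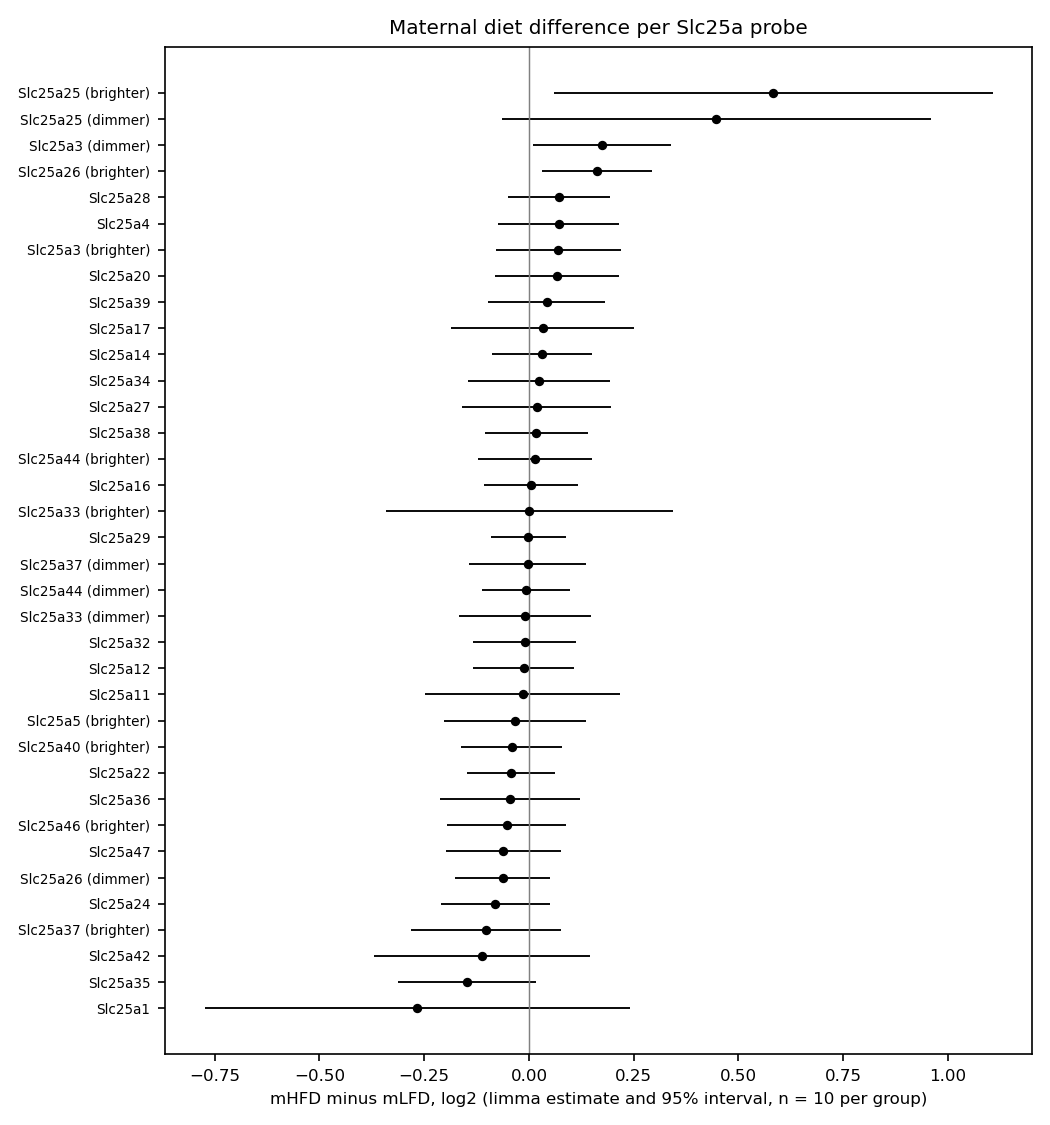
Difference mHFD minus mLFD in log2 ratio for the tested Slc25a probes reported here (points), with the limma 95% interval (lines) and n = 10 muscles per group except for Slc25a4 (8 and 9). The intervals of 3 probes lie above 0, those of the brighter Slc25a25 and Slc25a26 probes and of the dimmer Slc25a3 probe, and that of Slc25a1 is among the widest.

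Slc25a25 had the largest difference of any member. It exchanges ATP-Mg for phosphate under the control of calcium, and so adjusts the adenine nucleotide content of the matrix. Its brighter probe, at chr2:32270275-32270334 on the minus strand of mm9, gave log2 ratios from -0.64 to 1.36 in mHFD (median -0.11) and from -1.25 to 0.80 in mLFD (median -0.65). The groups overlapped: 1 mHFD muscle, mHFD 01, lay above every mLFD muscle, and all 10 lay at or above the mLFD median. The mHFD mean was 0.061 ± 0.56 and the mLFD mean -0.52 ± 0.70 (SD, n = 10 each). The difference was 0.58 (SE 0.25, 95% interval 0.060 to 1.11). The limma p was 0.0306 and adjusted 0.690, so the difference did not pass.

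The second Slc25a25 probe, 215 bases away by its start on the same strand, gave -0.39 to 1.26 in mHFD (median 0.013) and -1.15 to 0.94 in mLFD (median -0.56). Its difference was 0.45 (SE 0.25, limma p = 0.0837, adjusted p = 0.709). After each group was centred on its mean, both probes ranked the muscles alike over the 20 arrays, with r = 0.916 and rho = 0.814. They share the same RNA and hybridisation, so this describes the reading of the transcript and not separate muscles.

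Slc25a25 was higher in mHFD on all 5 slides, with slide differences of 1.21, 0.33, 0.99, 0.084 and 0.30 for the brighter probe. The sizes were uneven. Without slide 1 the difference was 0.43 and its unadjusted limma p 0.130, and without mHFD 01 the difference was 0.44 with p = 0.0687. For the dimmer probe, the difference without slide 1 was 0.26 with p = 0.346, a value lower by more than 1.5 times.

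Slc25a25 also varied among muscles of one group more than almost any transcript. Its within-group SD was 0.63 for the brighter and 0.62 for the dimmer probe, both at the 99.8th percentile of all tested probes. Slc25a1 was the only other member at that percentile, with an SD of 0.61, and the next was Slc25a33 at 0.41 (98.6th percentile).

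**Figure D3:**
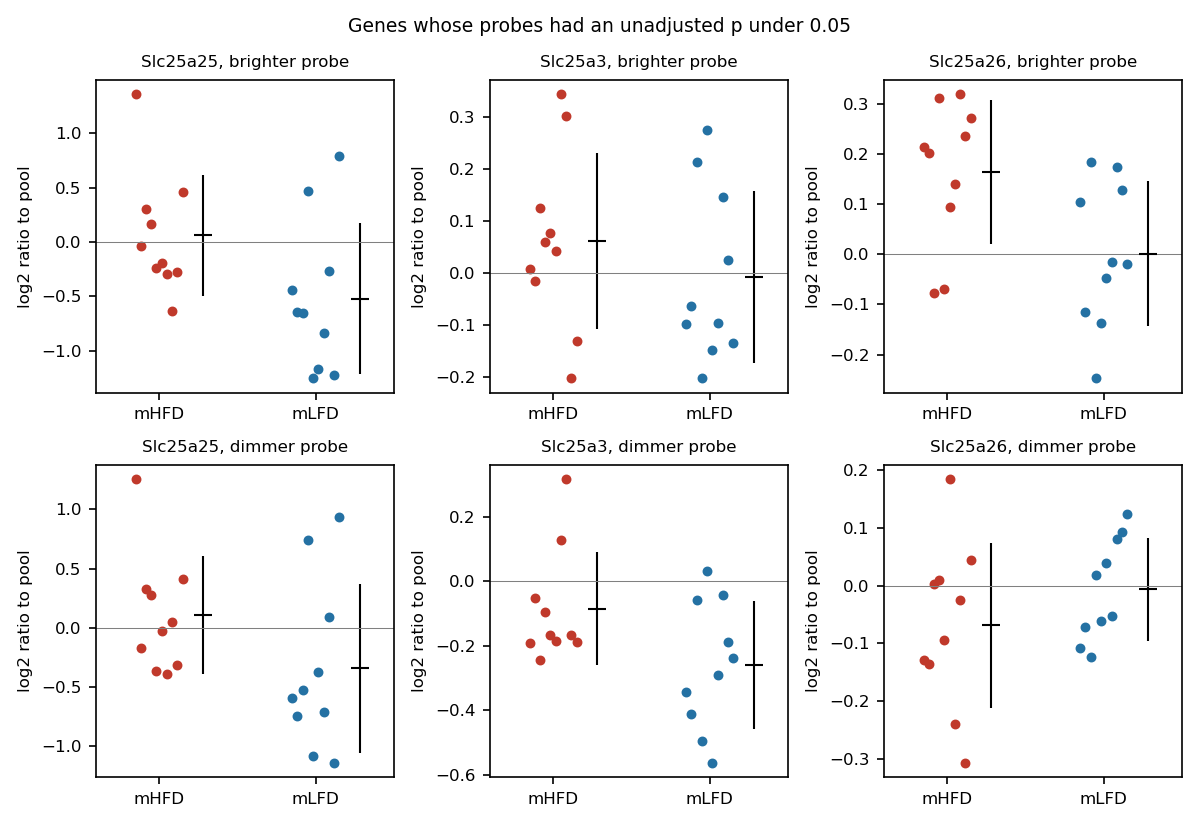
Log2 ratio to the pool of every muscle (points) by group, with the group mean and SD (bars), for both probes of the genes with an unadjusted p under 0.05; n = 10 per group. Both Slc25a25 probes show mHFD 01 highest in its group, both Slc25a3 probes have a higher mHFD mean, and the Slc25a26 probes differ in sign.

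Slc25a26 imports S-adenosylmethionine, the methyl donor, into mitochondria. Its brighter probe gave -0.076 to 0.32 in mHFD (median 0.21) and -0.25 to 0.18 in mLFD (median -0.017). Of the 10 mHFD muscles, 6 lay above the highest mLFD muscle, and the groups overlapped in the others. The difference was 0.16 (SE 0.063, 95% interval 0.032 to 0.29; limma p = 0.0170, adjusted p = 0.690), and it was above 0 on all 5 slides, from 0.10 to 0.21. It became 0.092 with the scanner software's own log ratios (p = 0.197).

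The probe across the Slc25a26 intron, shown above, gave -0.31 to 0.18 in mHFD and -0.12 to 0.12 in mLFD. Its difference was -0.063 (SE 0.055, limma p = 0.266, adjusted p = 0.800), opposite in sign to that of the brighter probe. Group-centred values of the pair were unrelated over 20 arrays, with r = -0.052 and rho = -0.0015. The coordinates do not say whether both probes read the same transcripts of the gene, which was not tested.

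Slc25a3 was read by a pair of probes whose starts lie 198 bases apart, at chr10:90579539-90579598 and chr10:90579341-90579400. The dimmer probe gave -0.24 to 0.32 in mHFD (median -0.17) and -0.56 to 0.033 in mLFD (median -0.26). All 10 mHFD muscles lay above the mLFD median, though only 2 lay above the highest mLFD muscle. The difference was 0.18 (SE 0.080, 95% interval 0.011 to 0.34; limma p = 0.0381, adjusted p = 0.690), and it was above 0 on all 5 slides. It became 0.11 with the scanner software's log ratios (p = 0.141). The brighter probe gave a difference of 0.069 (SE 0.072, limma p = 0.345), and the pair followed each other over the 20 arrays with r = 0.812 and rho = 0.680 after group centring.

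Slc25a4 had log2 ratios from 0.38 to 0.91 in 8 mHFD muscles (median 0.65) and from 0.39 to 0.81 in 9 mLFD muscles (median 0.57). No value was available for mHFD 03, mLFD 03 and mHFD 04, where all of its spots were flagged as outliers. The groups overlapped almost wholly. The difference was 0.071 (SE 0.070, 95% interval -0.074 to 0.22, limma p = 0.320, adjusted p = 0.816), and it was 0.078 with the flagged spots kept. Its sign followed the scaling: it was -0.049 when arrays were scaled to each other and -0.12 in the Cy5 channel alone. Slc25a5 gave -0.41 to 0.13 in mHFD and -0.35 to 0.22 in mLFD, a difference of -0.034 (SE 0.082).

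The remaining nucleotide carriers differed little. Slc25a42 ranged from -0.86 to 0.31 in mHFD and from -0.51 to 0.22 in mLFD, a difference of -0.11 (SE 0.12). Slc25a24 ranged from -0.40 to -0.010 in mHFD and from -0.34 to 0.28 in mLFD, a difference of -0.080 (SE 0.062) that was -0.036 without mLFD 06. Slc25a33 and Slc25a36, which carry pyrimidine nucleotides, had differences of 0.00072 (SE 0.17) and -0.046 (SE 0.081), and Slc25a17, the carrier of coenzyme A into peroxisomes, one of 0.032 (SE 0.11). The 9 tested genes of this role had 5 differences above 0 and 4 below, median 0.00072.

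The carboxylate carriers that were tested are Slc25a1, which exports citrate for fatty acid synthesis, and Slc25a11. Slc25a1 ranged from -0.81 to 0.80 in mHFD (median -0.41) and from -0.81 to 1.18 in mLFD (median 0.0027). The ranges covered each other, with 0 mHFD muscles above the highest mLFD muscle. The mHFD mean was -0.21 ± 0.55 and the mLFD mean 0.061 ± 0.66 (SD, n = 10 each), a difference of -0.27 (SE 0.25, 95% interval -0.77 to 0.24; limma p = 0.288, adjusted p = 0.806). Slide differences ran from -0.71 to 0.42, and with the scanner software's log ratios the difference was -0.55 (p = 0.109). It was -0.15 without mLFD 01 and -0.14 without mLFD 04. Slc25a11 ranged from -1.02 to -0.27 in mHFD and from -1.15 to -0.22 in mLFD, a difference of -0.014 (SE 0.11).

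Slc25a1 followed the adipocyte markers from muscle to muscle. The mean log2 ratio of the 7 measured markers was -0.42 ± 0.46 in mHFD (range -1.01 to 0.29) and -0.049 ± 0.65 in mLFD (range -1.01 to 0.92), and all 7 were lower in mHFD, by a median of -0.35 (-0.34 to -0.41 under other scalings), with 0 passing. Over the 20 arrays, values of Slc25a1 and of the marker mean, each centred on its group, gave Pearson's r = 0.895 and Spearman's rho = 0.913. Both permutation p-values were 1e-05, the smallest that 100000 resamples can give (adjusted over 10 relations, 1e-04). Without mLFD 01 and mLFD 04, the arrays farthest from the median of the markers, r was 0.833.

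The relation held in each group, with r = 0.861 over the 10 mHFD and 0.919 over the 10 mLFD arrays. The marker means left a gap between 9 arrays at or below -0.57 and 11 arrays at or above -0.28, and on either side of it r was 0.439 and 0.682. With the marker mean as a covariate in the limma fit, the Slc25a1 difference was 0.090 (p = 0.467) in place of -0.27, so its sign turned. In the same fit the Slc25a25 difference was 0.67. The part of adipocytes in these values was not tested further.

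**Figure D4:**
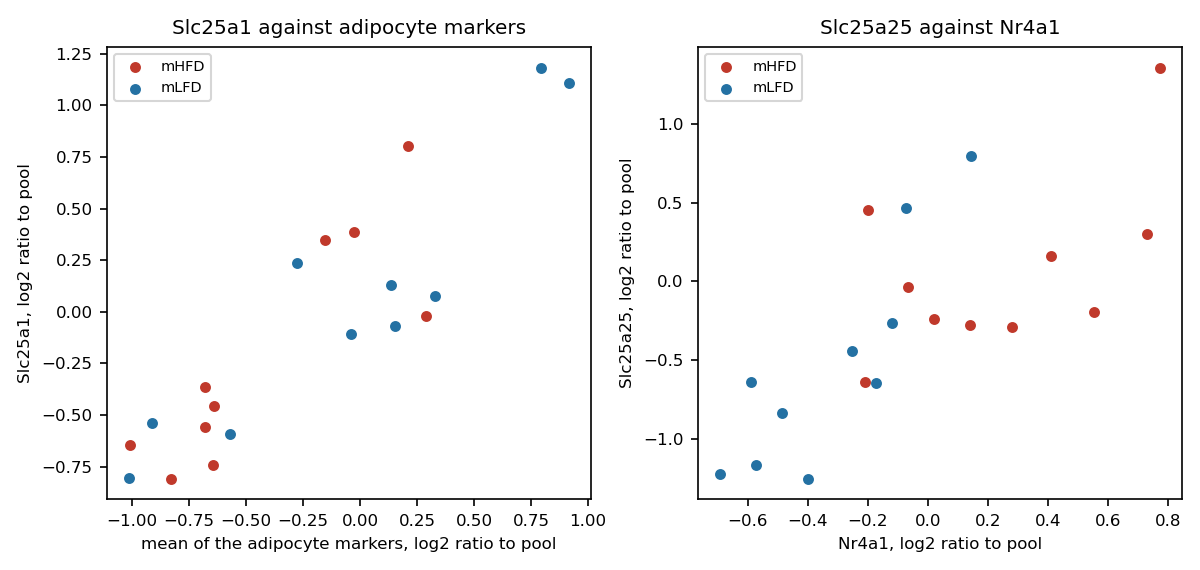
Left, the Slc25a1 log2 ratio of each muscle against the mean log2 ratio of 7 adipocyte markers; right, the brighter Slc25a25 probe against Nr4a1. Each point is 1 of 20 arrays, red for mHFD and blue for mLFD; Slc25a1 climbs with the markers in both groups, and mHFD 01 is the point at the upper right of the second panel.

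Slc25a25 followed Nr4a1, the immediate early nuclear receptor named in the title of the series. This relation was added after other results of these data were known. The group-centred values had r = 0.676 (permutation p = 0.00064, adjusted over 10 relations 0.0032) and rho = 0.577 (permutation p = 0.00777, adjusted 0.0388) over 20 arrays. Without mHFD 01 and mHFD 03, the arrays farthest from the Nr4a1 median, r was 0.587. It was 0.546 within mHFD and 0.865 within mLFD, and 0.715 when values were centred on slide and group. Slc25a25 and Bcl6, a transcriptional repressor, gave r = 0.257 (permutation p = 0.304).

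None of the other 7 relations passed over 20 arrays, or over the 16 and 17 with a value for Slc25a4. The pairs were Slc25a37, which imports iron in red cell precursors, with the erythroid markers (r = 0.093, permutation p = 0.734) and Slc25a38, the glycine carrier of heme synthesis, with the same markers (r = 0.467, permutation p = 0.0767). The latter r was -0.060 without mLFD 07 and mLFD 01. Slc25a10 with the adipocyte markers gave r = 0.344 (permutation p = 0.115), but Slc25a10 was well above background on only 4 arrays, so this relation says nothing. Slc25a20 with its partner enzyme Cpt2 gave r = -0.254 (permutation p = 0.305). Slc25a4 with mitochondrial creatine kinase, Ckmt2, gave r = 0.440 (permutation p = 0.117), Slc25a5 with Slc25a4 r = -0.198 (permutation p = 0.47), and Slc25a25 with the slow fibre markers r = -0.176 (permutation p = 0.483). The r of Slc25a4 with Ckmt2 was 0.0996 without mHFD 05 and mLFD 08, and -0.196 with the scanner software's log ratios. With those ratios r was 0.058 for Slc25a20 with Cpt2 and 0.080 for Slc25a5 with Slc25a4.

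Among the carnitine and amino acid carriers, 3 of 7 tested genes had a difference above 0 and 4 below. Slc25a20, which brings acylcarnitines to the matrix for fatty acid oxidation, ranged from -0.12 to 0.55 in mHFD and from -0.27 to 0.19 in mLFD, a difference of 0.068 (SE 0.071) that was 0.011 without mHFD 08. Slc25a12 ranged from -0.23 to 0.19 in mHFD and from -0.20 to 0.16 in mLFD, a difference of -0.013 (SE 0.058). Slc25a47, known mainly from liver, had a difference of -0.061 (SE 0.066). The other 4, the glutamate carrier Slc25a22, the basic amino acid carrier Slc25a29, Slc25a38 and the branched-chain amino acid carrier Slc25a44, lay between -0.042 and 0.017.

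Of the 8 tested cofactor and metal carriers, 5 had a difference above 0 and 3 below. Slc25a26 was described above. Neither of the iron importers passed. Slc25a28 ranged from -0.17 to 0.24 in mHFD and from -0.28 to 0.16 in mLFD, a difference of 0.073 (SE 0.059). The brighter Slc25a37 probe ranged from -0.48 to 0.13 in mHFD and from -0.37 to 0.35 in mLFD, a difference of -0.10 (SE 0.087). That difference became 0.054 with array position as a covariate and 0.037 in the Cy5 channel alone. The dimmer Slc25a37 probe gave a difference of -0.0034 (limma p = 0.960), and the pair had r = 0.379 after group centring. Slc25a16, the folate and FAD carrier Slc25a32, the glutathione carrier Slc25a39 and its relative Slc25a40 lay between -0.042 and 0.043.

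Among the members of other or unsettled role, Slc25a35 had the smallest p of any lower member. It ranged from -0.47 to 0.15 in mHFD (median -0.053) and from -0.19 to 0.43 in mLFD (median 0.0094), a difference of -0.15 (SE 0.079, limma p = 0.0760, adjusted p = 0.704). The groups overlapped, and the slide differences were below 0 on all 5 slides. The difference was -0.31 with the scanner software's log ratios, -0.34 in the Cy5 channel alone and -0.087 when the mean of the adipocyte markers was a covariate. Slc25a34 gave 0.024 (SE 0.082) and Slc25a46 gave -0.053 (SE 0.068). The uncoupling-type carriers Slc25a14 and Slc25a27 gave 0.031 (SE 0.058) and 0.018 (SE 0.086).

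The mean over the 31 member genes hardly separated the groups. It was -0.052 ± 0.061 in mHFD (range -0.15 to 0.052) and -0.060 ± 0.061 in mLFD (range -0.16 to 0.018; SD, n = 10 each), a difference of 0.0078. Slide by slide the difference was 0.0036, 0.0066, 0.074, -0.054 and 0.0086. The ranges of the groups covered each other almost completely, and the difference was 0.128 of the SD within a group.

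By role, the mean over the 9 nucleotide and phosphate carriers was -0.063 ± 0.13 in mHFD and -0.12 ± 0.085 in mLFD, and that over the 8 cofactor and metal carriers -0.017 ± 0.061 and -0.040 ± 0.060. The 7 carnitine and amino acid carriers averaged 0.0010 ± 0.063 and 0.0035 ± 0.045. The carboxylate pair had the widest spread, -0.42 ± 0.34 in mHFD and -0.28 ± 0.45 in mLFD. The 3 carriers of other role averaged -0.062 ± 0.071 and -0.0030 ± 0.053. In every role the group difference was smaller than the larger of the SDs.

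**Figure D5:**
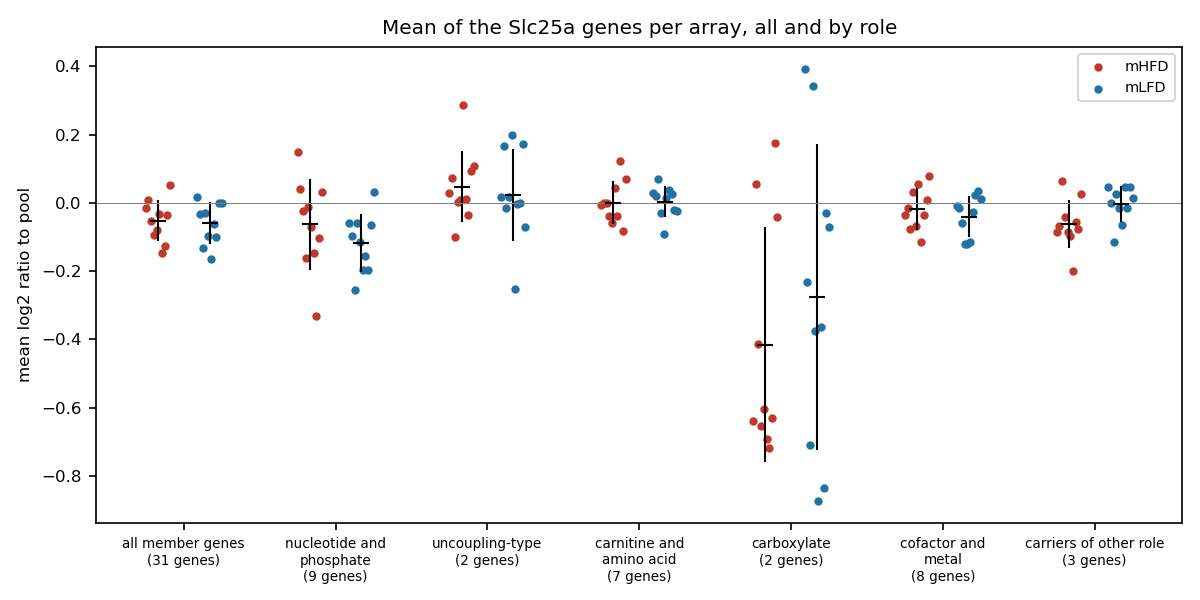
Mean log2 ratio to the pool over the member genes, and over the genes of each role, for every muscle (points; red mHFD, blue mLFD), with the group mean and SD (bars), n = 10 per group. The means of all 31 genes sit between -0.16 and 0.052 in both groups, and the carboxylate carriers spread farthest.

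Related carriers whose scanner-file name is not an Slc25a symbol were compared in the same fit, from a list that includes Slc25a51, Slc25a52 and Slc25a53. The scanner files give Slc25a51 and Slc25a53 under older names, so the rule missed them, and no probe was matched to Slc25a52. Slc25a51 had a difference of 0.16 (SE 0.087, limma p = 0.0727), and the other two were not tested. Of the 15 carriers in the list 13 were tested, 0 passed, 4 differences were above 0 and 9 below, with a median of -0.019. Ucp3, the uncoupling protein of muscle, had a difference of 0.24 (SE 0.10, limma p = 0.0235, adjusted p = 0.690), and the sideroflexin Sfxn5 one of -0.21 (SE 0.058, limma p = 0.00170, adjusted p = 0.679). Each had 2 tested probes, and only the brighter is given. At an unadjusted limma p under 0.05, 1 of the 13 was higher and 1 lower, against 4.03% and 3.11% of all probes. Ucp1, the uncoupling protein of brown fat, had log2 ratios of -1.20 ± 1.0 in mHFD and -0.46 ± 1.59 in mLFD, a difference of -0.74 (SE 0.53, limma p = 0.177), beside the lower mean of the adipocyte markers in mHFD.

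Of the 19 genes on the route into the inner membrane all were tested and 0 passed; 10 differences were above 0 and 9 below, with a median of 0.022. The outer membrane channel Vdac3 had a difference of 0.20 (SE 0.064, limma p = 0.00510, adjusted p = 0.679) and the import chaperone Timm13 one of 0.10 (SE 0.049, limma p = 0.0491). At an unadjusted limma p under 0.05, 2 of the 19 were higher and 0 lower, against 4.03% and 3.11% of all probes. Timm22, the insertion pore for carriers, gave 0.022 (SE 0.044). Of 14 enzymes that work with the carriers, 0 passed, 8 differences were above 0 and 6 below, with a median of 0.010. None of the 14 had an unadjusted limma p under 0.05. Acly, which splits the citrate that Slc25a1 exports, had the widest spread and a difference of -0.35 (SE 0.34).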

How the data were processed

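RNA of 20 muscles was measured on 2-colour arrays. Per the file headers, the authors read the spots with Agilent Feature Extraction 10.7.3.1, and coordinates are of build mm9; the deposited scanner files hold spot and background intensity and log10 ratios (Cy5 over Cy3). The authors also deposited log2 values for 19377 spots with a median of 7.54 in every column. These correlated at 0.994 or more with Cy5 corrected by Cy3, and their background correction, scale and centring are not given in the sources used here.

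Mean intensities were background-corrected (normexp, offset 50), normalized by loess within arrays and averaged per probe, without control and outlier spots. Names were updated through RefSeq. Groups were compared with limma 3.58.1 in R 4.3.3 (two-sided, threshold adjusted p 0.05 over 19206 probes). The fit was also run on simulated independent values without slide, litter or position effects, so that run says nothing of such effects here. Correlations used 100000 permutations within groups. Each gene's brightest probe stood for it; in gene means, missing values took the group mean. The number of arrays limits the precision.

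Members and lists were chosen with earlier results of these data known. Values in full go to the 8 brightest genes, those of smallest p, close paralogues and genes whose probes differ. Alternatives covered normalization, filters, slide, replicate and position, each array in turn and the adipocyte markers. Position entered as a linear trend along the slide, which cannot separate an odd or even place from the diet. Replicate numbers are shared between the groups, but the labels do not tie them to litters or days, so the main fit did not treat them as pairs. Same-numbered muscles always shared a slide. After each tested probe was centred on its group mean, their values correlated from -0.0072 to 0.358 (median 0.177), with 8 of 10 pairs above 0.1. Over all pairs of an mHFD and an mLFD array, the median of this centred correlation was 0.160 on a slide and -0.053 between slides. The main fit had no term for the slide, which entered as a block in alternatives. Exon and UTR positions were not used here. Values of 1 member gene, included in the counts and means, are not reported here.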

Additional observations from a re-analysis of the deposited data

Results flagged for a closer look

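In 44 sets of 10 muscles, the values of 21 member probes or genes and of their mean in each group, a muscle was marked when its gap to the nearest other muscle took a share of the whole range above Dixon's 95% critical value. Chance gives about 1 in 20, or 2.2, and 5 were found. Slc25a20 was far above the others in mHFD 08, at 0.55 against 0.045 for the next (0.758 of the range), and its group difference was 0.011 without that muscle in place of 0.068. In the same muscle Slc25a28 was far below the others, at -0.17 against 0.048 (0.533 of the range), with a group difference of 0.10 without it in place of 0.073. Slc25a47 was high in mHFD 10, at 0.25 against 0.045 (0.521 of the range), with a difference of -0.091 without it in place of -0.061. Slc25a24 was high in mLFD 06, at 0.28 against -0.024 (0.49 of the range), with a difference of -0.036 without it in place of -0.080. The dimmer Slc25a25 probe was high in mHFD 01, at 1.26 against 0.41 (0.514 of the range), and without that muscle its group difference was 0.32 in place of 0.45. The causes were not tested.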

How the results depend on the processing

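Under all alternatives limma called 0 of the member probes and 0 of the genes in the lists of other carriers, pores and enzymes after adjustment. The smallest adjusted p of a member was 0.367, with the replicate number as a block. Equal numbers mark a shared slide (7 of 20 arrays correlated best, among arrays of the other group, with their own number). Whether they also mark a shared litter or day is not known. That block gave 4 members with an unadjusted p under 0.05 in place of 3, all higher in mHFD, while the number over all probes went from 1371 to 1990. It put 2 of 19206 probes past the threshold overall in place of 1. The count of members higher at an unadjusted p under 0.05 was 0 with median centring in place of loess and 0 without slide 1, and lay between 1 and 4 under the others. The count of members lower was 1 in the Cy5 channel alone, with no filter on dim probes and without slide 2. It was also 1 without mHFD 04, mLFD 02 or mLFD 03 in turn, and 0 under the others. Over all probes, the number at an unadjusted p under 0.05 was 96 with median centring, against 1371, and the number past the adjusted threshold lay between 0 and 2. The difference in the mean over the member genes was 0.074 within slide 3 and -0.054 within slide 4, and ranged from -0.0037 to 0.018 with each muscle left out in turn. The 8 brightest genes were the same in the Cy3 pool.

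Several differences, most of them small, turned sign. With the scanner software's log ratios they were 0.055 for Slc25a11, 0.00048 for Slc25a12, 0.034 for Slc25a46, 0.020 for Slc25a42, 0.066 for Slc25a5, -0.013 for Slc25a33 and 0.12 for Slc25a36. After scaling between arrays they were -0.049 for Slc25a4, 0.059 for Slc25a11 and 0.0047 for Slc25a5. In the Cy5 channel alone they were -0.12 for Slc25a4, 0.016 for Slc25a11, 0.055 for Slc25a12, 0.088 for Slc25a46, 0.060 for Slc25a42, 0.023 for Slc25a5, 0.037 for Slc25a37, -0.14 for Slc25a33, 0.025 for Slc25a47 and 0.41 for Slc25a36. In the authors' deposited table they were -0.0015 for Slc25a4, -0.0070 for Slc25a33 and 0.030 for Slc25a24. With array position as a covariate they were 0.048 for Slc25a12, 0.00045 for Slc25a46, -0.055 for Slc25a34, 0.054 for Slc25a37, -0.014 for Slc25a33, 0.045 for Slc25a47 and 0.0018 for the dimmer Slc25a26 probe. With array weights they were -0.00095 for Slc25a34 and 0.0050 for Slc25a5.

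Without slide 2 the Slc25a34 difference was -0.033. Without slide 3 the differences were 0.037 for Slc25a46, -0.041 for Slc25a34, 0.016 for Slc25a5 and -0.065 for Slc25a33. Without slide 4 they were 0.021 for Slc25a12, -0.019 for Slc25a33 and 0.058 for Slc25a36, and without slide 5 that of Slc25a11 was 0.029. With 1 muscle left out in turn, Slc25a11 ranged from -0.075 to 0.029, Slc25a33 from -0.067 to 0.11, Slc25a34 from -0.029 to 0.060, Slc25a12 from -0.038 to 0.0087 and Slc25a5 from -0.064 to 0.0019. Chosen after seeing the data were the fits without mLFD 01 and mLFD 07 (-0.043 for Slc25a33, 0.0075 for Slc25a36), the fit with the adipocyte marker mean (0.078 for Slc25a11, 0.0012 for Slc25a5, 0.090 for Slc25a1), the fit with outlier spots kept, and the relations of Slc25a25 with Nr4a1 and Bcl6. The cause was not tested.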
